A study of Mus musculus with 9 samples.

Results

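The 10 genes described here encode the interleukin-1 and interleukin-18 pathway and the inflammasome that matures its cytokines: Il1a, Il1b, Il1rn, Il1r1, Il1rap, Il18, Il18bp, Nlrp3, Casp1 and Pycard. They were taken by symbol, and all 10 were among the 27179 genes of the deposited liver table. All 10 also averaged 10 or more normalized counts across the 9 libraries, the minimum for testing, which 12993 genes reached. A normalized count is the number of reads assigned to a gene divided by 1 size factor per library.

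The livers came from wild-type C57BL/6J mice that were 17 months old at injection and were sampled 3 weeks later. Every mouse received 3e11 vector genomes of AAV8 (a viral vector with affinity for liver) by retro-orbital injection, carrying the nuclease saCas9, driven in hepatocytes by the TBG promoter, and a U6-driven guide RNA. The guide was directed at the Rosa26 locus, a common neutral cutting control, in 4 mice (sgRosa26), and at Ccnd1, the gene of the cell cycle activator cyclin D1, in 5 mice (sgCcnd1). Poly(A) RNA of a flash-frozen piece of the m-lobe was sequenced in bulk, so cells that the TBG promoter does not reach were measured with the hepatocytes. The series title names inflammatory signalling as the outcome of interest. The libraries are called A, B, C and D (sgRosa26) and E, F, G, H and I (sgCcnd1) in the order of the table's columns, since the column names give the guide target but no replicate number.

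Interleukin-1 alpha and beta act through 1 receptor, made of the IL-1R1 chain and the accessory chain IL-1RAP, and switch on NF-kB through the adaptor MyD88. Interleukin-1 beta and interleukin-18 are made as inactive precursors. The inflammasome, in which a sensor such as NLRP3 assembles with the adaptor ASC (encoded by Pycard) and pro-caspase-1, cleaves them. Both arms have soluble antagonists: the IL-1 receptor antagonist, encoded by Il1rn, occupies IL-1R1 without signalling, and the IL-18 binding protein, encoded by Il18bp, captures free interleukin-18. In liver, Kupffer cells and recruited myeloid cells are known sources of these cytokines, and hepatocytes answer interleukin-1 by making acute-phase proteins. Much of the control over this pathway is by cleavage and release of protein, which transcript levels do not measure.

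The promoters of the 2 genes whose groups did not overlap, Il18bp and Pycard, and that of Il18, the ligand which the Il18bp product binds, are shown so that the regulatory sequence stands beside the values. Each line gives the 250 bases before the RefSeq transcription start on GRCm38.p6, 5′ to 3′ on the gene's strand. Capitals mark matches to 6 searched motifs.

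Il18bp, chr7:102018233-102018482, minus strand: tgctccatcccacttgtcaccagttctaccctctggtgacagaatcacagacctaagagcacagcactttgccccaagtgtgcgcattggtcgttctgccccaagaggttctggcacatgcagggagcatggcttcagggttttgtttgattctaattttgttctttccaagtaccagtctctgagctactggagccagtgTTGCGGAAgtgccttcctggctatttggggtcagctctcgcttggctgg

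Pycard, chr7:127993868-127994117, minus strand: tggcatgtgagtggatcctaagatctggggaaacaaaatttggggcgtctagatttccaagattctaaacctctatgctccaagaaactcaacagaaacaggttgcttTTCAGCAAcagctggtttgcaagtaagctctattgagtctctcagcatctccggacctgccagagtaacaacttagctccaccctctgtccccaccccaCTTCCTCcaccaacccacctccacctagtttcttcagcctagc

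Il18, chr9:50554450-50554699, plus strand: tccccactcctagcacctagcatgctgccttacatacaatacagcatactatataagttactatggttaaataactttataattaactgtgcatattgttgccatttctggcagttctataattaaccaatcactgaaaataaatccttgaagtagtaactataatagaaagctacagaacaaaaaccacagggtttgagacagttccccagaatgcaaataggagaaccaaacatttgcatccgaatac

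The motifs, searched on both strands, were 2 copies of GAAA with any 2 bases between (like the interferon-stimulated response element), TTCNNNGAA (the GAS element bound by STAT proteins), GGGA and CC with any 4 bases between (NF-kB-like), TGANTCA (AP-1), GAGGAAG (like the site of the myeloid factor PU.1) and TTGCNNAA (C/EBP-like). The capitals in the Il18bp promoter are a C/EBP-like match 49 to 42 bases before the start, and 9.56% of 32851 promoter windows of this length hold such a match. The Pycard promoter holds a C/EBP-like match 142 to 135 bases and a PU.1-like match 43 to 37 bases before the start, the latter a motif present in 10.6% of windows. The Il18 window holds none of the 6. Over all 10 genes, counting every listed start, the NF-kB-like motif was in promoters of Il1rap, Il1rn and Nlrp3 (17.6% of all windows), AP-1 in those of Il1a and Il1rn (6.75%), PU.1-like in those of Il1a, Nlrp3 and Pycard, and C/EBP-like in those of Il18bp, Il1r1 and Pycard. The interferon-type motifs were in 0 of the 10 genes' windows, against 2.98% and 7.02% of all windows. A match describes letters in a window and not a bound site.

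Depth ranged from 10.8 to 20.2 M reads assigned to genes per library. Ccnd1 itself had 625 to 867 normalized counts in sgRosa26 and 325 to 428 in sgCcnd1, and was lower in every sgCcnd1 library (limma adjusted p = 0.0116, rising to at most 0.0857 when B, D, F, H or I was left out). Library H of the sgCcnd1 group stood apart in Y-linked genes, with 2.00 normalized counts of Ddx3y against 810 to 1154 in the other 8 libraries, while its Xist level, also 2.00, lay within the 0 to 3.92 of those 8, so the values of the 10 genes are also given without it. The labels name no batch. The hepatocyte marker sum ranged from 1634840 to 2100310 normalized counts over all libraries, with Alb and the other 7 markers present, as the tissue label states.

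No gene of the 10 passed the test over all genes. In limma, 0 of 10 were lower and 0 of 10 were higher at an adjusted p under 0.05, where 0.0077% and 0% of all genes tested were called, so this count says little about the 10 themselves. Some intervals were wide, reaching for Il1b from 0.460-fold to 1.12-fold and for Nlrp3 from 0.445-fold to 1.25-fold of control. DESeq2 on the recovered reads left the adjusted p of Pycard and Nlrp3 undefined and called 0 of the other 8, where it called 0.585% of all genes lower and 0.316% higher, and edgeR called 0 of the 10. At an unadjusted limma p under 0.05, 2 of 10 were lower (5.74% of all genes tested) and 0 were higher (5.22%). These 2, Il18bp and Pycard, were also the 2 of 10 in which all sgCcnd1 libraries lay below all sgRosa26 libraries, which holds for 1.97% of the genes tested. No gene of the 10 had all sgCcnd1 libraries above all sgRosa26 libraries (1.92%). The fold change was below 0 for 7 of the 10 genes, against 47.1% of all genes, with a median log2 fold change of -0.26 against 0.01. Without library H the log2 fold changes were -0.52 for Pycard (limma adjusted p = 0.634), -0.46 for Il18bp, -0.51 for Il1b, -0.42 for Nlrp3, -0.14 for Il1a, -0.12 for Il1rn and -0.01 for Casp1. They were 0.03 for Il1rap, 0.09 for Il1r1 and 0.12 for Il18, so the 10 signs were those found with all 9 libraries. Fold changes are on the log2(normalized count + 1) scale, which understates differences of low genes.

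**Figure D1:**
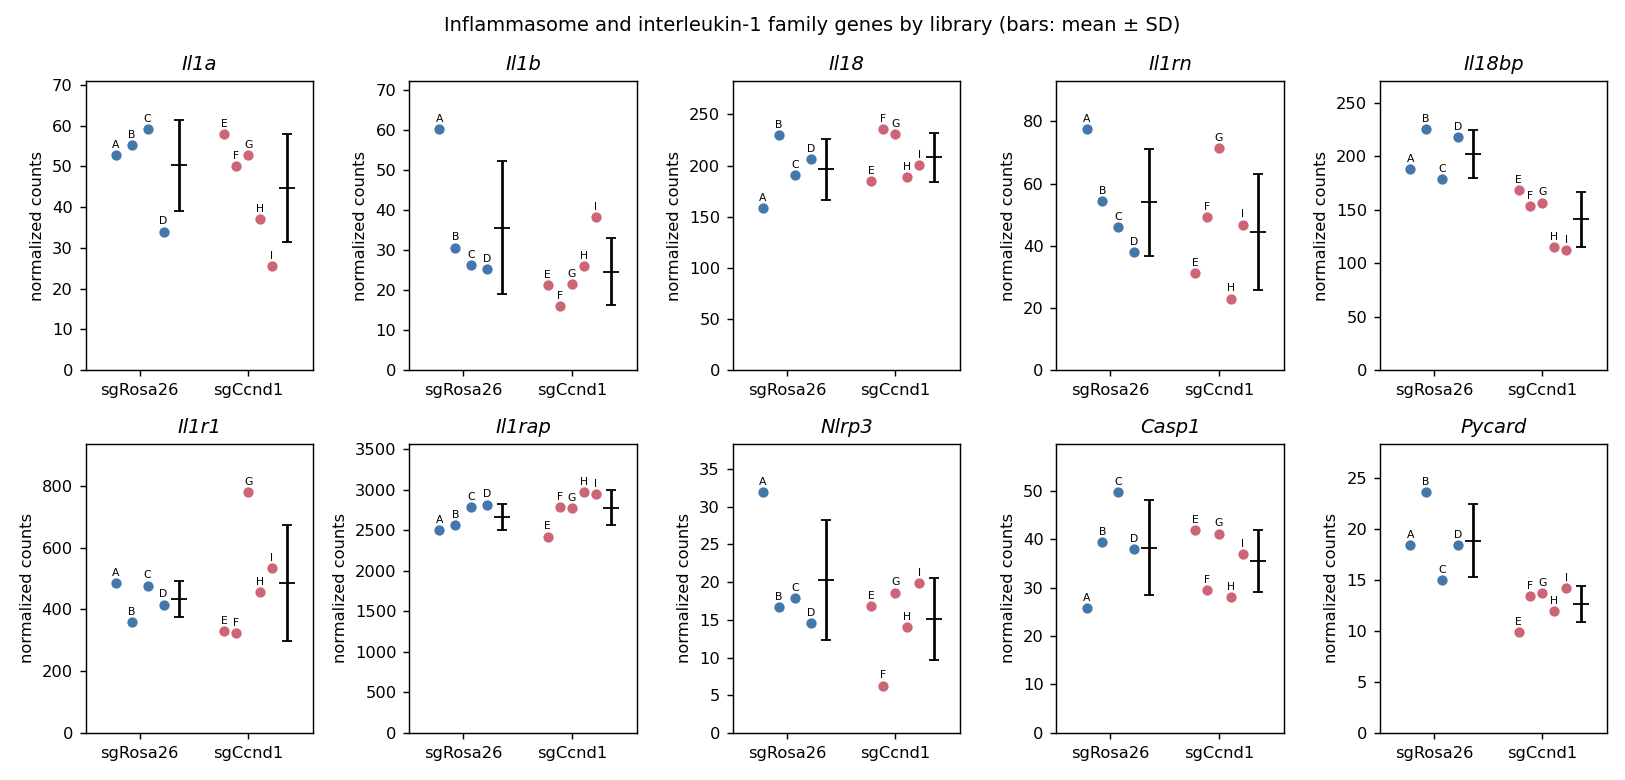
Normalized counts of the 10 genes in each library (vertical axes from 0; letters name the libraries; bars are mean ± SD, n = 4 and 5). The points of Il18bp and Pycard do not overlap between groups, those of the other 8 genes do, and library A stands high for Il1b, at 60.2, and Nlrp3, at 32.0.

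Levels were also taken per kilobase of exon annotated in GENCODE M21. These lengths cover every annotated exon of a gene and can exceed those of the transcripts counted. Pycard has 3800 such bases although its RefSeq gene spans only 127991373 to 127993867, so the order is rough. Il1rap was the highest of the 10. It averaged 240.2 normalized counts per kb over the 9 libraries (range 213 to 262). Il18 followed at 197 (154 to 228), a range that overlapped that of Il1rap. Il1r1, at 72.6, and Il18bp, at 55.6, came next and overlapped each other, but neither reached Il18. Casp1 (24.5), Il1a (23.9), Il1b (15.5), Il1rn (8.78), Nlrp3 (4.29) and Pycard (4.06) followed, each overlapping the next in its range over the libraries. On this scale Il1rap, Il18 and Il1r1 thus stood above Nlrp3, Casp1 and Pycard in these livers. The sensor Nlrp6, which is outside the 10, was higher still, at 613 per kb.

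Among the ligands, Il18 was at 159, 229.7, 191 and 206 normalized counts in libraries A to D and at 184, 235, 231, 189 and 200.1 in E to I. Its groups overlapped almost wholly. The log2 fold change of Il18 was 0.09 (SE 0.125, limma adjusted p = 0.827), and its 95% interval reached from 0.881-fold to 1.29-fold of control. The gene lies on chromosome 9 from 50554700 to 50581841.

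Il1b (chromosome 2, 129364569 to 129371164), the cytokine that NF-kB induces and caspase-1 activates, was at 60.2, 30.7, 26.3 and 25.3 normalized counts in sgRosa26 and at 21.3, 16.1, 21.5, 25.99 and 38.3 in sgCcnd1. The sgCcnd1 libraries E, F and G were below the lowest control, H was just inside the controls' range and I above all controls but A. The log2 fold change was -0.48 (SE 0.296, limma adjusted p = 0.573), and without library A it was -0.20. Il1a (chromosome 2, 129299609 to 129310186), the alarmin that is active without cleavage by caspase-1, was at 52.9, 55.2, 59.1 and 34.0 in sgRosa26 and at 57.9, 50.1, 52.9, 37.0 and 25.5 in sgCcnd1. Its groups overlapped, with libraries D, H and I lowest, and its log2 fold change was -0.19 (SE 0.249, limma adjusted p = 0.803), which was -0.01 without I and -0.37 without D.

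Of the antagonists, Il18bp (chromosome 7, 102015074 to 102018232) separated the groups. It was at 188, 225, 178 and 218 normalized counts in libraries A to D and at 168, 153, 157, 115 and 112 in E to I. The highest sgCcnd1 library, E, lay below the lowest control, C, and libraries H and I were the lowest. The means were 202 ± 22.6 (SD, n = 4) and 141 ± 25.8 (SD, n = 5), 69.7% of control, and the SD expected from counting reads alone was 14.2 and 11.8. The log2 fold change was -0.53 (SE 0.143, 95% interval -0.84 to -0.22), with an exact permutation p of 0.0159. It did not pass over all genes (limma adjusted p = 0.255; edgeR adjusted p = 0.249; DESeq2 adjusted p = 0.0766), and without library H the log2 fold change was -0.46 (limma adjusted p = 0.501; range over all alternatives 0.0766 to 0.545).

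Il1rn (chromosome 2, 24336860 to 24351491) was at 77.5, 54.3, 46.0 and 37.9 normalized counts in sgRosa26 and at 31.3, 49.2, 71.5, 23.0 and 46.8 in sgCcnd1. Only libraries E and H lay below the controls, and library G was near the highest control. Its log2 fold change was -0.33 (SE 0.302, limma adjusted p = 0.710), and it was -0.12 without H and -0.14 without A.

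The balance of antagonist to ligand was taken as a ratio of transcripts within each library, a quantity that the scaling between libraries does not touch; for the test, 1 was added to each term and the log2 taken. The ratio of Il18bp to Il18 was 1.19, 0.981, 0.936 and 1.06 in A to D, and 0.913, 0.650, 0.678, 0.608 and 0.560 in E to I. All 5 sgCcnd1 libraries were below the lowest control, E by a small margin. The means were 1.04 ± 0.109 (SD, n = 4) and 0.682 ± 0.137 (SD, n = 5), a log2 difference of -0.62 (exact two-sided permutation p = 0.0159, 0.0317 when adjusted over the 2 ratios examined). Of the genes tested other than Il18, 1.85% had a ratio to Il18 that was lower in every sgCcnd1 library than in every control. With any of A, E, F, G, H or I left out the log2 difference stayed between -0.73 and -0.55, but its exact permutation p adjusted over the 2 ratios was 0.0571 to 0.0714, with 8 libraries left.

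The ratio of Il1rn to the sum of Il1a and Il1b was 0.538 to 0.685 in the controls and spread from 0.365 (H) to 0.961 (G) in sgCcnd1. The group means were 0.624 ± 0.0614 (SD, n = 4) and 0.639 ± 0.254 (SD, n = 5), with no detectable difference (exact permutation p = 0.873).

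**Figure D2:**
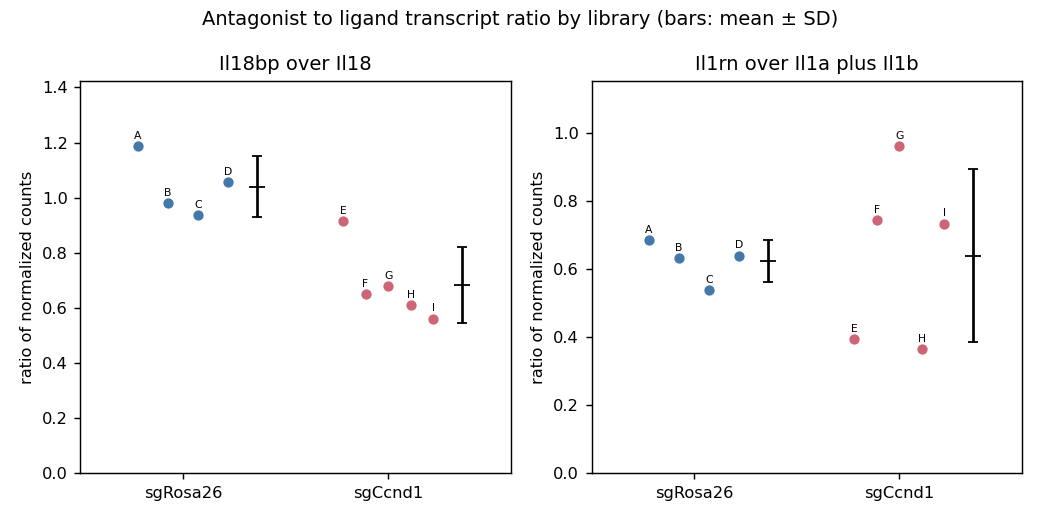
Ratio of Il18bp to Il18 (left) and of Il1rn to Il1a plus Il1b (right) in each library, from normalized counts (bars are mean ± SD, n = 4 and 5). On the left all sgCcnd1 points, up to 0.913, are below all sgRosa26 points, from 0.936; on the right the sgCcnd1 points lie on both sides of the controls.

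The receptor chains were at levels close to control. Il1rap (chromosome 16, 26581509 to 26730128) was at 2497, 2565, 2788 and 2816 normalized counts in sgRosa26 and at 2420.4, 2782, 2769.6, 2972 and 2945 in sgCcnd1. Libraries H and I exceeded every control and E lay below every control. Its log2 fold change was 0.06 (SE 0.0835, limma adjusted p = 0.834), with a 95% interval from 0.918-fold to 1.18-fold of control, the narrowest of the 10 genes. Il1r1 (chromosome 1, 40222480 to 40316201) was at 484, 359, 477 and 416 in sgRosa26 and at 329, 322, 780.3, 455 and 534 in sgCcnd1. Library G stood highest and libraries E and F lowest of all 9, so the sgCcnd1 SD was 188 against 58.5 in the controls. The log2 fold change of Il1r1 was 0.09 (SE 0.223, limma adjusted p = 0.917), and without G it was -0.11.

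Within the inflammasome, Pycard, the adaptor that joins sensor to caspase, separated the groups at a low level. It was at 18.4, 23.7, 15.0 and 18.5 normalized counts in A to D and at 9.91, 13.4, 13.7, 12.0 and 14.2 in E to I. The highest sgCcnd1 library, I, lay just under the lowest control, C. The means were 18.9 ± 3.57 (SD, n = 4) and 12.6 ± 1.73 (SD, n = 5), 66.9% of control. These values rest on 10 to 27 reads per library, for which counting alone gives an SD of 4.34 and 3.61, larger than the spread seen. The log2 fold change was -0.54 (SE 0.227, 95% interval -1.03 to -0.04), with an exact permutation p of 0.00794, the smallest that this test allows with 4 and 5 libraries. It did not pass over all genes (limma adjusted p = 0.417; edgeR adjusted p = 0.378), and DESeq2 left its adjusted p undefined. In GENCODE M21, Pycard (chromosome 7, 127991373 to 127993867 in RefSeq) shares 485 exon bases with Gm45205 on the other strand. Use of strand in the counting is not given in the sources used here. Exons of 4 other members also overlap a gene on the other strand: Il1rap with Gm20319 (552 bases), Il1a with Gm14023 (222 bases), Il18bp with Numa1 (80 bases) and Il1b with Il1bos (25 bases). The deposited table is per Entrez gene, so these overlaps need not hold in the annotation used for counting. Where they do, reads there cannot be assigned to 1 gene without strand.

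Nlrp3 (chromosome 11, 59541569 to 59566955), the sensor, was at 32.0, 16.7, 17.8 and 14.6 normalized counts in sgRosa26 and at 16.8, 6.27, 18.6, 14.0 and 19.9 in sgCcnd1. Library A was the highest and F the lowest, at 26 and 7 reads, and the other 7 libraries overlapped. Nlrp3 had a log2 fold change of -0.43 (SE 0.342, limma adjusted p = 0.668), which was -0.19 without A and -0.16 without F, and DESeq2 left its adjusted p undefined. Casp1 (chromosome 9, 5298517 to 5307281), the protease, was at 25.8, 39.4, 49.7 and 37.9 in sgRosa26 and at 41.9, 29.5, 41.1, 28.0 and 36.9 in sgCcnd1. All 5 sgCcnd1 values of Casp1 lay inside the range of the controls, and the log2 fold change was -0.09 (SE 0.212, limma adjusted p = 0.913).

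**Figure D3:**
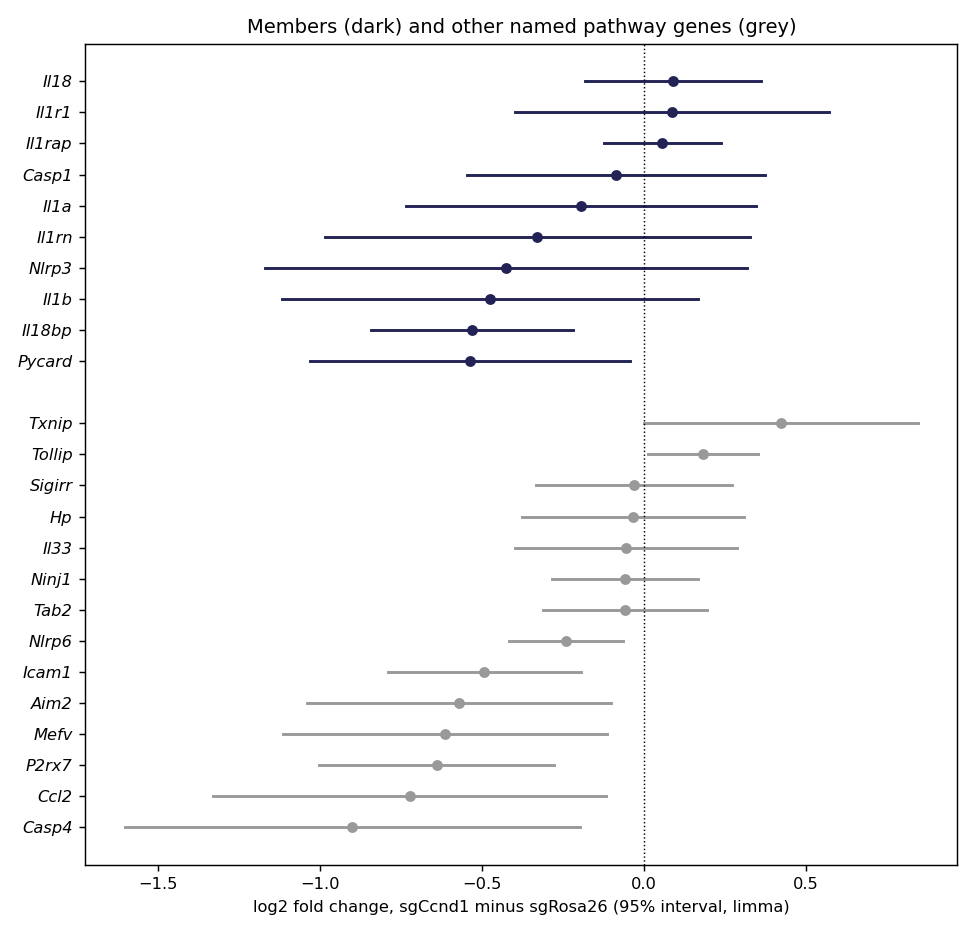
Log2 fold change of sgCcnd1 against sgRosa26 with its 95% limma interval for the 10 genes (dark) and the other pathway genes named in the text (grey), each block sorted by value. The intervals of Il18bp and Pycard lie below 0 and those of the other 8 dark genes cross 0; the intervals are not adjusted for the number of genes.

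Other genes of the pathway were taken from a list of 67, grouped by role, of which 48 were tested. Of these, 0 passed in limma after adjustment in either direction, and 0 in DESeq2, which left the adjusted p of 4 undefined. At an unadjusted limma p under 0.05, 7 of the 48 were lower and 2 higher, where 5.74% and 5.22% of all genes tested were. All sgCcnd1 libraries lay below all controls for 4 of the 48 (1.97% of all genes) and above for 1 (1.92%). The median log2 fold change of the 48 was -0.05 against 0.01 for all genes, with 29 below 0 and 19 above, against 47.1% of all genes below 0. The counts by role that follow are read against these same shares.

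Of 8 tested sensors other than NLRP3, 3 were lower at an unadjusted p under 0.05, and 0 of 8 passed after adjustment. Nlrp6, a sensor known from gut epithelium and liver, was at 3403 ± 252 normalized counts (SD, n = 4) in sgRosa26 and 2881 ± 177 (SD, n = 5) in sgCcnd1, with all sgCcnd1 libraries below all controls (log2 fold change -0.24, limma adjusted p = 0.334). Mefv, which encodes pyrin, was at 16.9 to 20.9 in the controls and 8.52 to 14.7 in sgCcnd1, also without overlap (log2 fold change -0.61, limma adjusted p = 0.364). Aim2, the sensor of cytosolic DNA, was at 22.5 to 36.9 and 14.7 to 22.7, overlapping in library I (log2 fold change -0.57, limma adjusted p = 0.372). Of the caspases and effectors, 1 of 5 was lower at an unadjusted p under 0.05: Casp4, the mouse caspase-11 that senses lipopolysaccharide inside cells, was at 31.5 ± 7.98 in sgRosa26 and 17.4 ± 7.01 in sgCcnd1 (log2 fold change -0.90, limma adjusted p = 0.346). Ninj1, which ruptures the membrane of dying cells and had the highest normalized counts of this group, was at 1738 ± 240 and 1664 ± 156.

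P2rx7, the ATP-gated channel that triggers NLRP3, was at 93.4, 78.9, 71.3 and 71.9 normalized counts in A to D and at 58.7, 35.8, 57.8, 49.98 and 51.1 in E to I. The groups did not overlap, and the gap between library E and the lowest control was 12.6. Its log2 fold change was -0.64 (SE 0.167, limma adjusted p = 0.253; DESeq2 adjusted p = 0.0804). Txnip, a redox and glucose-responsive protein reported to bind NLRP3, was at 855 ± 171 and 1161 ± 315, higher in sgCcnd1 at an unadjusted p only (log2 fold change 0.42, 0.26 without library D; limma adjusted p = 0.454).

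Of the signalling genes downstream of the receptors, 3 of 11 were below 0 and 8 above, and 1 of 11 had an unadjusted p under 0.05. Tollip, an inhibitor that binds the IRAK kinases, was at 834 to 1005 in the controls and 1042 to 1109 in sgCcnd1, without overlap (log2 fold change 0.18, 0.12 without library A; limma adjusted p = 0.421). Tab2, an adaptor of the kinase TAK1, had the highest normalized counts here without regard to length, at 1389 ± 152 and 1339 ± 203; per kb of exon Irak1, at 229.7, was above Tab2, at 222. Myd88 itself, named after its values were seen, was at 259 to 303 in sgRosa26 and 250.05 to 312 in sgCcnd1 (log2 fold change -0.02).

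Few of the remaining ligands and receptors reached the minimum for testing. Of 6 other ligands of the family only Il33 was tested, at 36.9 ± 2.61 in sgRosa26 and 35.7 ± 4.39 in sgCcnd1, and 4 had 0 reads in all 9 libraries, where 3 reads would be worth 2.29 to 4.26 normalized counts. Of 8 other receptors and decoys 2 were tested. The inhibitory receptor Sigirr, the one with more normalized counts, was at 286 ± 38.3 and 281 ± 50.02.

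A list of genes known to answer interleukin-1 or NF-kB in liver was also read, and it is not specific to interleukin-1. Of 17 listed, 14 were tested, 10 were below 0 and 4 above, with a median log2 fold change of -0.09. At an unadjusted limma p under 0.05, 2 of the 14 were lower, and 1 of the 14 had all sgCcnd1 libraries below all controls. The split of signs depended on library A. Without it Saa1 (0.03), Saa2 (0.11), Lcn2 (0.15), Hp (0.05) and Zc3h12a (0.09) turned above 0. Icam1, Ccl2, Nfkbiz, Tnfaip3 and Cxcl1 stayed below 0. Icam1, the leukocyte adhesion molecule, was at 396, 359, 282 and 257 in A to D and at 254.6, 204, 235, 197 and 246 in E to I, so the groups came close without overlapping (log2 fold change -0.49, limma adjusted p = 0.266; DESeq2 adjusted p = 0.0689). Ccl2, the monocyte chemoattractant, was at 27.2 ± 6.93 and 16.4 ± 5.25 (log2 fold change -0.72, limma adjusted p = 0.375). Haptoglobin, encoded by Hp and highest in normalized counts, was at 34604 ± 4781 and 34140.3 ± 7008, a log2 fold change of -0.03.

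Single libraries stood out among these responders. Library G was the highest of the sgCcnd1 group in 8 of the 14 genes and the highest of all 9 libraries in 6, and it also held the highest sgCcnd1 values of Il1r1 and Il1rn. Cxcl1, a neutrophil chemokine named here after its values were seen, was at 766 normalized counts in G against 81.6 to 243 in the other 8 libraries. Library D was the lowest of all libraries in 7 of the 14.

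**Figure D4:**
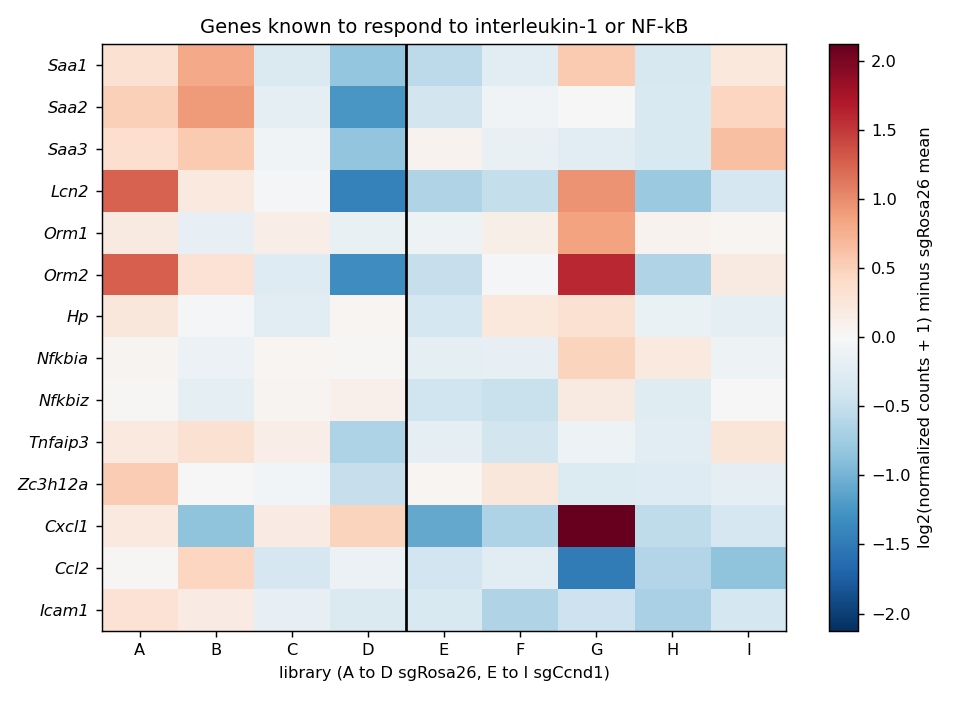
Log2(normalized count + 1) of the 14 tested genes known to respond to interleukin-1 or NF-kB, relative to the sgRosa26 mean (colour), by library; the line separates sgRosa26 on the left from sgCcnd1. Library G is the highest of the sgCcnd1 group in 8 of the 14 rows.

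The summed levels of 2 leukocyte marker lists lay below all controls in every sgCcnd1 library, as Il18bp and Pycard did, but no single leukocyte marker passed over all genes (lowest limma adjusted p = 0.225, for Lyz2 and Mpeg1). Of all genes tested, 47.1% were below 0 and 5.74% were lower at an unadjusted p under 0.05. In 1.97% every sgCcnd1 library lay below every control. Among markers this held for 1 of 4 pan-leukocyte, 4 of 7 monocyte and macrophage, 1 of 3 neutrophil and 1 of 6 B and plasma cell markers. It held for 0 in the other lists. The summed level of 4 pan-leukocyte markers was 771 to 1026 normalized counts in the controls and 506 to 753 in sgCcnd1, without overlap. All 4 were below 0 (median log2 fold change -0.52), each at an unadjusted p under 0.05. The summed level of 8 monocyte and macrophage markers was 2525 to 3058 and 1706 to 2069, also without overlap, with 7 of 7 tested below 0 (median -0.62) and 4 of 7 at an unadjusted p under 0.05. Summed Kupffer cell markers overlapped, at 3395 to 4510 and 3151 to 3954, with 7 of 10 below 0 (median -0.11) and 2 of 10 at an unadjusted p under 0.05. The neutrophil sum also overlapped, at 125 to 210.3 and 80.0 to 133, with 3 of 3 tested below 0 (median -0.59) and 1 of 3 at an unadjusted p under 0.05, and in it Ly6g had at most 1 read. Summed T and NK cell markers were at 87.3 to 226 and 49.98 to 156, with 5 of 5 tested below 0 (median -1.07), each at an unadjusted p under 0.05. B and plasma cell markers were at 228 to 451 and 171 to 412, with 6 of 6 below 0 (median -0.45) and 1 of 6 at an unadjusted p under 0.05, and dendritic cell markers at 145 to 174 and 110.0 to 166, with 4 of 4 tested below 0 (median -0.24) and 0 of 4 at an unadjusted p under 0.05. Lists of other liver cells overlapped too. Among hepatocyte markers 3 of 8 were below 0 (median log2 fold change 0.10), with 0 of 8 at an unadjusted p under 0.05. Stellate cell markers summed to 3293 to 5207 and 2998 to 4412, with 5 of 6 below 0 (median log2 fold change -0.27) and 2 of 6 at an unadjusted p under 0.05. Cholangiocyte markers summed to 928 to 1906 and 750 to 1165, with 3 of 5 below 0 (median -0.31) and 1 of 5 at an unadjusted p under 0.05. Sinusoidal endothelial markers summed to 2808 to 3931 and 2914 to 4235, with 5 of 7 below 0 (median -0.04) and 0 of 7 at an unadjusted p under 0.05. No marker list had a gene at 0 in all libraries. In a bulk sample fewer cells of a type and less RNA per cell cannot be told apart.

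Levels were also set against these sums within each library, a step chosen after the data were seen. Per 100 normalized counts of pan-leukocyte markers, Il18bp was at 24.1 ± 2.60 in sgRosa26 (SD, n = 4) and 24.7 ± 4.56 in sgCcnd1 (SD, n = 5), and Pycard at 2.23 ± 0.232 and 2.27 ± 0.572. Per 100 counts of monocyte and macrophage markers, Il18bp was at 7.41 ± 1.31 and 7.46 ± 0.841. On these 2 scales the groups of both genes overlapped. Per 100 counts of Kupffer markers, Il18bp was at 5.30 ± 0.621 and 4.07 ± 0.736 and Pycard at 0.498 ± 0.114 and 0.370 ± 0.0813, with lower means in sgCcnd1 and overlapping groups. Per 100 counts of hepatocyte markers, Il18bp was at 0.0107 ± 0.00177 and 0.00746 ± 0.000794, with all sgCcnd1 libraries below all controls, while the groups of Pycard overlapped. The hepatocyte sum was mostly Alb, at 1677960 of 2025490 normalized counts in library A. Il18 per 100 counts of monocyte and macrophage markers was at 7.21 ± 1.54 in sgRosa26 and 11.1 ± 1.34 in sgCcnd1, with all sgCcnd1 libraries above all controls. The same held for Il1rap, at 97.5 ± 12.3 and 149 ± 22.8, and both genes were divided by a sum that was itself lower in sgCcnd1. Whether the leukocyte content of the samples accounts for the values of Il18bp and Pycard was not tested.

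**Figure D5:**
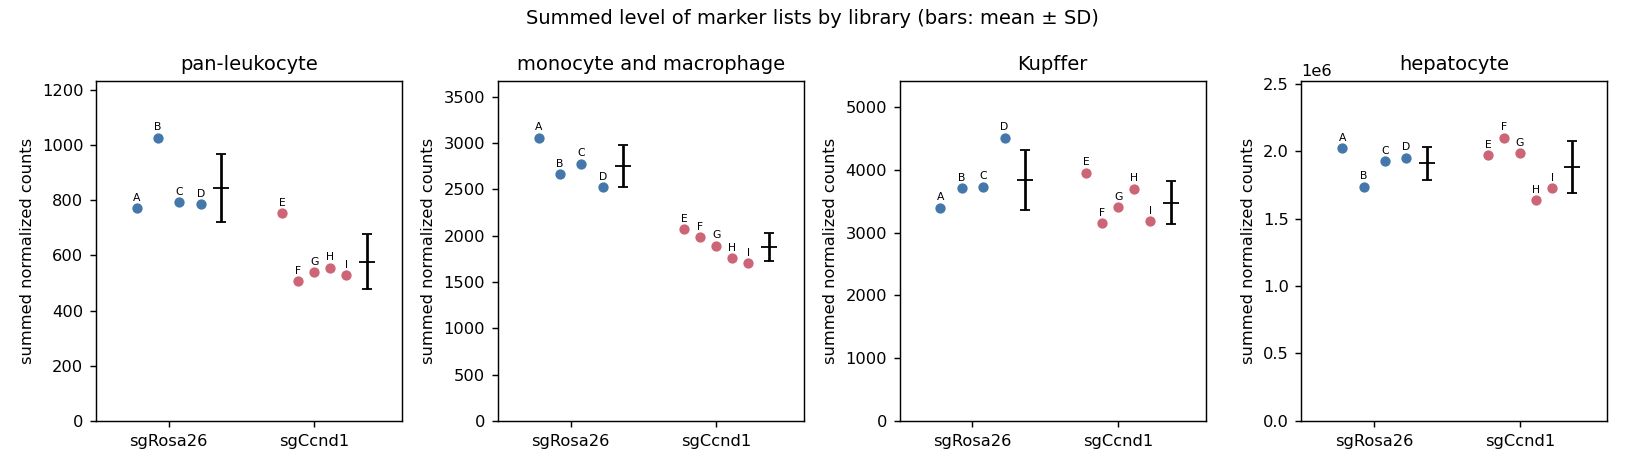
Summed normalized counts of 4 marker lists in each library (vertical axes from 0; bars are mean ± SD, n = 4 and 5). The pan-leukocyte and the monocyte and macrophage sums of all sgCcnd1 libraries lie below those of all controls, while the Kupffer and hepatocyte sums overlap.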

How the data were processed

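The members and gene lists were chosen with earlier results of these data known. The authors deposited 1 table of normalized counts per Entrez gene, a signal that is never negative. Per the submitters' processing notes, the tools were Trim Galore 0.6.7, HISAT2 2.2.1, featureCounts 2.0.3, FastQC 0.74, MultiQC and DESeq2 2.11.40.8, and the builds mm10 and GRCm38; coordinates come from RefSeq GRCm38.p6. Use of strand is not given in the sources used here. In each library 100% of values up to 2000 reads were whole multiples (within 0.01) of 1 number, the value of 1 read, so reads were recovered. Exon lengths and overlaps come from GENCODE M21, promoters from RefSeq.

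Genes with a mean of at least 10 were tested on log2(normalized count + 1) with limma 3.58.1 (R 4.3.3; eBayes with trend, two-sided, no covariates, Benjamini-Hochberg over 12993 genes, threshold 0.05). For single values the exact permutation test (two-sided, 126 arrangements) was used. The recovered reads were tested with edgeR 4.0.16 and DESeq2 1.42.0. The procedures were also run on simulated counts, but the outcome is not given here, so it backs no result. All 10 members were named, and other pathway genes if their unadjusted limma p was under 0.05 or if they had the highest normalized counts of their role. The labels describe each replicate as a mouse. Reads carry no molecular identifiers, so depth gives counting error only.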

Additional observations from a re-analysis of the deposited data

Results flagged for a closer look

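In 76 groups of values examined, 6 had a library far from the rest of its group, where chance gives about 3.8. In sgRosa26 library A, Il1b reached 60.2 normalized counts, where the other controls had 25.3 to 30.7. In the same library Tollip was the lowest control, at 834 against 978 to 1005. In sgRosa26 library D, Txnip was at 599 against 916 to 953. The pan-leukocyte sum was 1026 in library B against 771 to 794 in the other controls. In the sgCcnd1 group, library E was highest for the pan-leukocyte sum, at 753 against 506 to 556, and for the T and NK cell sum, at 156 against 49.98 to 73.8. Library E was also the highest of its group for Il18bp, at 168.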

How the results depend on the processing

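No paired analysis was possible because the table's column names hold no replicate numbers, only an animal number that no sample title holds. The labels also state no pairing of sgRosa26 with sgCcnd1 mice. Shared replicate numbers in the sample titles would therefore not by themselves define pairs. Count models without library H were added after the data were seen. The count of members called, 0 in each direction, was 0 in all 21 alternatives, but a minimum mean of 100 tested 4 of the 10, and DESeq2 left the adjusted p of Pycard and Nlrp3 undefined, and without H also that of Il1b. Il18bp stayed below 0 in all 21, with log2 fold changes from -0.60 to -0.45 (adjusted p from 0.0766 to 0.545), and Pycard in all 20 that tested it, from -0.64 to -0.35. Over all genes, where limma called 1 lower and 0 higher, quantile normalization called 2 lower, DESeq2 76 lower and 41 higher, DESeq2 leaving out H 25 lower and 16 higher, and edgeR leaving out H 0 in either direction. Leaving out 1 library gave 0 to 2 genes lower.

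Leaving out 1 library moved the log2 ratio difference of Il18bp to Il18 between -0.73 and -0.55 and that of Il1rn to its ligands, -0.05 with all libraries, between -0.22 and 0.12. Signs also turned for values near 0. With quantile normalization Il1rap was at -0.0073, Casp1 at 0.018 and Il33 at 0.053. Without H, Sigirr was at 0.038 by edgeR and 0.042 by DESeq2, and by DESeq2 Il33 was at 0.0027 and Hp at 0.0051. Leaving out 1 library gave log2 fold changes from -0.11 to 0.21 for Il1r1, -0.0079 to 0.17 for Il18, -0.26 to 0.050 for Casp1, -0.094 to 0.016 for Il33, -0.12 to 0.043 for Sigirr, -0.12 to 0.031 for Ninj1, -0.14 to 0.0071 for Tab2 and -0.12 to 0.051 for Hp. The cause was not tested. Among the 10 genes depth limits Pycard and Nlrp3 most, with 7 to 27 reads per library. Rescaling to a common 75th percentile moved the unadjusted split from 746 lower and 678 higher to 953 and 464, a minimum mean of 100 to 351 and 586, and leaving out library A to 742 and 904.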

Other observations

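Each of the 10 genes was also compared with about 10410 genes of at least 50 normalized counts for the likeness of its levels over the 9 libraries, after the group means were taken off. The closest to Il18bp were Spryd3 and Ywhaq (Pearson r = 0.96 and 0.94), to Pycard Anxa4 and Txnrd2 (0.97 for both), and to Il1r1 Pik3c3 and Foxp2 (0.98 for both). Irak4, the kinase that MyD88 recruits, was the closest to Il1rn (0.96). The values are a description without a test, since the highest of so many correlations over 9 libraries is high in any case.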
